A study of Mus musculus with 4 samples.

Results

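The genes described here are the 2 that encode the histone variant H2A.Z, H2az1 and H2az2, and 3 genes whose proteins handle it outside the SRCAP complex, Anp32e, Ep400 and Ino80. They are 5 of 21887 protein-coding genes of the mouse RefSeq gene table, found by symbol, and all 5 were found. An accessible interval was assigned to a gene when it lay inside the gene or within 10 kb of either end. By that rule 9 of the 21004 distinct intervals of the Znhit1 knockout list and 5 of the 15376 of the control list belonged to these genes. The intervals are peaks of ATAC-seq, an assay that cuts open chromatin with Tn5 transposase, in mouse testis cells labelled as pachytene spermatocytes and tagged P35 in all samples. The labels name 4 libraries, 2 of genotype Znhit1_KO and 2 of genotype CTRL, and give no strain, allele or Cre driver. Analysed here is 1 peak list per genotype, recorded for Znhit1 knockout replicate 1 and control replicate 1. A difference between the lists therefore has no replicates behind it, and no test was run.

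H2A.Z takes the place of ordinary H2A in nucleosomes on both sides of active gene starts. The SRCAP complex, of which ZNHIT1 is a subunit, and the related TIP60 complex, whose ATPase is EP400, exchange H2A for H2A.Z. ANP32E is a chaperone that binds H2A.Z and takes it off chromatin, and INO80 is the ATPase of a remodeller that has been linked to H2A.Z removal in yeast. H2AZ1 and H2AZ2 are near-identical proteins from separate genes, and mouse embryos die without H2AZ1.

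The interval over a gene start is the site that all 5 genes had in at least 1 list, so the 250 bases before each start are printed here from the RefSeq promoter table (build GRCm38.p6, the same primary assembly as mm10), read along the gene from 5′ to 3′. Capitals mark the CCAAT box, searched as CCAAT and, on the other strand, as ATTGG.
H2az1, chr3:137864237-137864486, plus strand: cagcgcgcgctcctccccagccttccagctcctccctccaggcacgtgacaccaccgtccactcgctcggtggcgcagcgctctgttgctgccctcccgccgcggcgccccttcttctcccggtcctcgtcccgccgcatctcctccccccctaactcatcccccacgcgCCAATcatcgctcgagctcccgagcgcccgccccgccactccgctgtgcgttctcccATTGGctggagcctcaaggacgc
H2az2, chr11:6444444-6444693, minus strand: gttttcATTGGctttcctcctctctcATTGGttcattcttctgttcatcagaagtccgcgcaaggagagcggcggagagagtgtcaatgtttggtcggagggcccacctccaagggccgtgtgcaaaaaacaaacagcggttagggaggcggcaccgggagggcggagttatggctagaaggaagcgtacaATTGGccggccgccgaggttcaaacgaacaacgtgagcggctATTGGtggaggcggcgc
Anp32e, chr3:95929007-95929256, plus strand: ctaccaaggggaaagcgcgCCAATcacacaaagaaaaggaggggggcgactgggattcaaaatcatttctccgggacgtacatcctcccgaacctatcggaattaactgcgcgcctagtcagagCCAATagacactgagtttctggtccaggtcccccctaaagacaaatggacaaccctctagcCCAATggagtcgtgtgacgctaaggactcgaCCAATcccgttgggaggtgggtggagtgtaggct
Ep400, chr5:110770718-110770967, minus strand: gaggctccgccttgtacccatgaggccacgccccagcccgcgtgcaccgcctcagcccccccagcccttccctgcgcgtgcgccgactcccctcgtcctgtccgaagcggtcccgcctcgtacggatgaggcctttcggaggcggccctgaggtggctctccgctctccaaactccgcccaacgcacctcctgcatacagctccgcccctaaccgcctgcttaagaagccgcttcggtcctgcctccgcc
Ino80, chr2:119477688-119477937, minus strand: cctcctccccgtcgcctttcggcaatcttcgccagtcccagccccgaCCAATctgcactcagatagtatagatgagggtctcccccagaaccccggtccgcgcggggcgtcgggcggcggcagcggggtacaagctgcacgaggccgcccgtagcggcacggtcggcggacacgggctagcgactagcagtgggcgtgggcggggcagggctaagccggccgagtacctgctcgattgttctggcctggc
All 250 bases of H2az1, H2az2, Ep400 and Ino80 lay inside a knockout interval, as did 244 of those of Anp32e. In the control list all 250 bases of H2az2, Ep400 and Ino80 lay inside an interval, 174 of those of H2az1, and 0 of those of Anp32e. The 76 bases of H2az1 left outside are the first 76 printed, and neither CCAAT box of that gene is among them.

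CCAAT boxes stood in 4 of these 5 stretches, with 2 at H2az1, 4 at H2az2, 4 at Anp32e, 1 at Ino80 and 0 at Ep400. Of 21263 such stretches before coding gene starts, 35.4% hold at least 1 and 1.02% hold 4 or more. Among the 7697 whose start lay inside an interval of either list, 39.2% hold at least 1 and 2.33% hold 4 or more. At H2az2 all 4 boxes read on the other strand, and they began 244, 224, 59 and 17 bases before the start. At Anp32e all 4 read along the gene, and they began 231, 126, 65 and 34 bases before the start. The GC box (GGGCGG or CCGCCC) was present 3 times at Ino80, 2 times at Ep400, and 1 time each at H2az1 and H2az2. Anp32e had none. It was found in 42.6% of all stretches and in 66.8% of those with a start inside an interval. The E-box CACGTG was present at H2az1 (6.63% of all stretches, 9.82% of those with a start inside an interval). This E-box lies among the 76 bases of H2az1 outside the control interval. The core of the cyclic AMP response element (TGACG or CGTCA, 20.2% and 32.2%) was present at Anp32e, and the ETS core (CCGGAA or TTCCGG, 15.0% and 28.4%) at none. The MYB core (AACNG or CNGTT), found in 73.1% and 71.8% in the same order, was in 4 of the 5, the exception being Ino80. No match overlapped a match to another of these motifs. A match is a run of letters and not a bound site.

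H2az1, Ep400 and Ino80 had GC-rich starts, at 71.2%, 70.0% and 69.2% G or C, above the upper quartile of 68.0% among the starts inside an interval. H2az2 with 57.2% and Anp32e with 54.0% lay below the median of 62.0% of those starts. The ratio of CpG found to that which base composition gives was 1.05 at H2az1, 0.963 at H2az2, 0.936 at Ino80 and 0.899 at Ep400. It was 0.714 at Anp32e, against a median of 0.804 (quartiles 0.663 and 0.942) among those starts. Anp32e thus had the lowest value of the 5 on both measures.

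Knockout cells had an interval over the start of each of the 5 genes, and control cells over 4, with Anp32e the exception. Of 17492 coding genes with a start in the promoter table, 35.6% had an interval over it in the knockout list, 30.4% in the control list, 27.0% in both, 8.56% in the knockout list alone and 3.36% in the control list alone. Away from the starts, the 5 genes had 4 further intervals in the knockout list and 1 in the control list. With the 10 kb rule, 5 of the 5 genes had an interval in the knockout list, against 60.0% of all coding genes, and 4 had one in the control list, against 52.0%. Of the 5, 4 had one in both lists, against 46.1% of coding genes, 1 in the knockout list alone, against 13.9%, and 0 in the control list alone, against 5.85%. Of the 9 knockout intervals 5 overlapped a control interval, against 32.4% of the whole knockout list, and of the 5 control intervals 4 overlapped a knockout interval, against 44.4% of the control list. Over the whole lists the share differed by position: 78.1% of the knockout intervals over a coding gene start overlapped a control interval, and 15.5% of those elsewhere did. Of control intervals, 89.3% of those over a coding gene start and 24.0% of those elsewhere overlapped a knockout interval. At the 5 genes, the knockout interval over the start overlapped a control interval everywhere but at Anp32e. Of the 4 knockout intervals away from the starts, only that of Ino80 did.

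**Figure D1:**
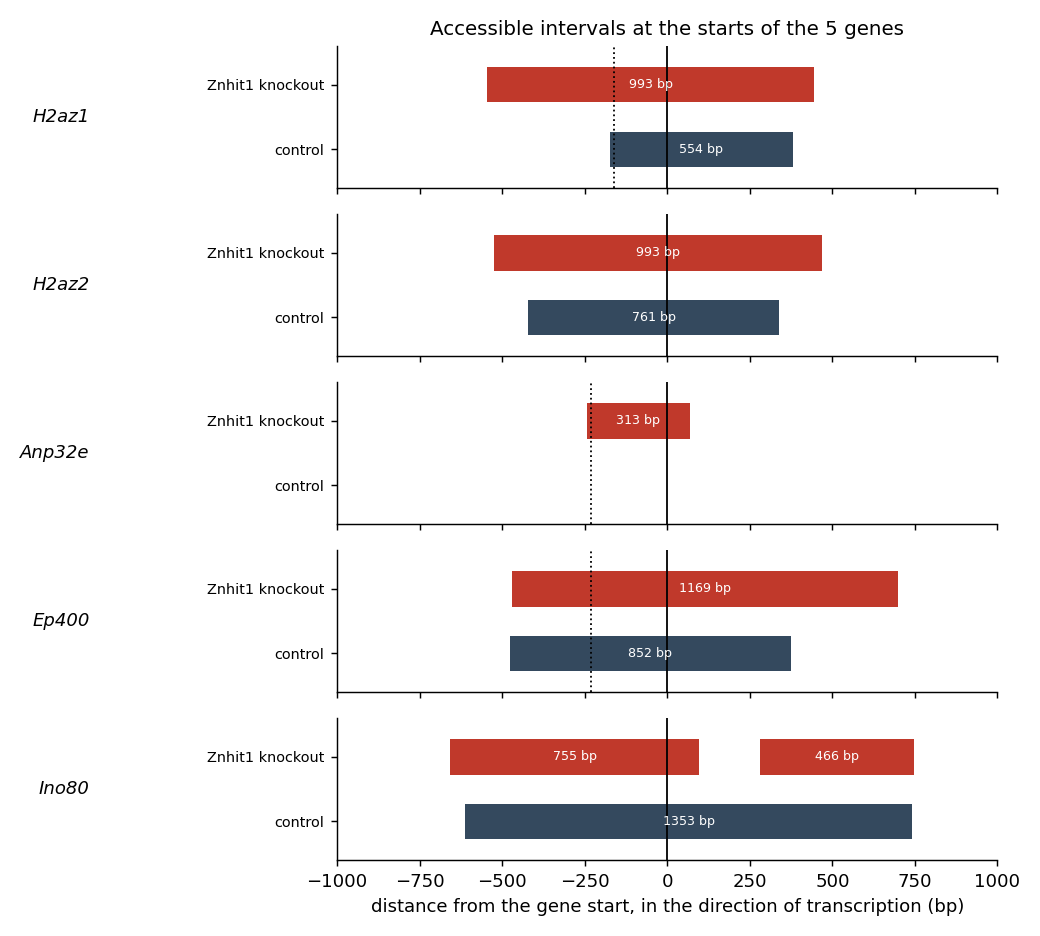
Intervals within 1000 bp of the starts of the 5 genes, in the Znhit1 knockout list (red, upper bar) and the control list (dark, lower bar). The x axis is the distance from the start in bp along transcription, the solid line is the start, the dotted line is the start of a long non-coding RNA on the other strand, and each bar carries its width. Anp32e has a bar in the knockout list alone, and Ino80 has 2 knockout bars over the stretch of 1 control bar.

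H2az1 encodes the form of H2A.Z that mouse embryos cannot do without. The gene is 2436 bp long and lies on the plus strand of chromosome 3, from 137864487 to 137866922. Its 1 knockout interval ran from 137863940 to 137864932, with a width of 993 bp, and stood on 2 lines of the list. Its 1 control interval ran from 137864313 to 137864866, with a width of 554 bp, and stood on 1 line. The knockout interval held the whole control interval and reached 373 bp further upstream and 66 bp further downstream. From the start the knockout interval reached 547 bp upstream and the control interval 174 bp, and downstream they reached 445 bp in the knockout and 379 bp in control cells. The log2 width ratio, knockout over control, was 0.84, which lay above 92.3% of the 3997 pairs of intervals that met 1 to 1 over a coding gene start. Those pairs had a median log2 ratio of 0.03, with quartiles of -0.27 and 0.36.

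H2az2 encodes the second form of H2A.Z, on the minus strand of chromosome 11 from 6427226 to 6444511. Its knockout interval ran from 6443976 to 6444968 and was 993 bp wide, the same width as that of H2az1, and it too stood on 2 lines. Its control interval ran from 6444105 to 6444865, was 761 bp wide and stood on 1 line. Here the knockout interval held the control interval with a more even margin, 103 bp on the upstream side and 129 bp on the downstream side. The log2 width ratio was 0.38, above 76.7% of the 1-to-1 pairs. The pseudogene Gm11970 lies upstream, 848 bp from the knockout interval and 951 bp from the control interval. Both H2A.Z genes had this single interval per list in their whole windows of 22436 and 37286 bp. The knockout interval held the control interval at 28.8% of the 1-to-1 pairs over coding gene starts, and it was the wider at 52.8%.

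The window of H2az1 takes in the near end of Dnajb14, a co-chaperone gene 752 bp past the end of H2az1, and that of H2az2 begins within Ppia, which encodes cyclophilin A. The rule found no interval there in either list.

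Anp32e encodes the chaperone that strips H2A.Z from nucleosomes, and it was the gene of the 5 with intervals in the knockout list alone. It spans 95929245 to 95947387 on the plus strand of chromosome 3. The interval over its start ran from 95929013 to 95929325, was 313 bp wide and stood on 1 line, reaching 244 bp upstream and 68 bp downstream. Only 7.18% of the 5686 knockout intervals over a coding gene start were narrower, and the 1246 of them with no control overlap had a median width of 481 bp (quartiles 338 and 642). A second knockout interval lay 3396 bp past the far end of the gene, from 95950783 to 95951426. At 644 bp it was the wider one, and it exceeded 97.4% of the 12951 knockout intervals that covered no coding gene start and overlapped no control interval. It also stood on 1 line, and the next coding gene on that side, Plekho1, lies 41421 bp past the end of Anp32e. The nearest control interval, from 95881992 to 95882983, lay 46030 bp from the start interval and 67800 bp from the second.

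Ep400 encodes the ATPase of the TIP60 complex, and it had the most intervals of the 5 genes, 3 in the knockout list and 2 in the control list. It is 106555 bp long and lies on the minus strand of chromosome 5, from 110664373 to 110770927. Over its start the knockout interval ran from 110770020 to 110771188, was 1169 bp wide and stood on 3 lines. The control interval there ran from 110770343 to 110771194, was 852 bp wide and stood on 2 lines. On the upstream side the control interval reached 6 bp further, and on the downstream side, into the gene, the knockout interval reached 323 bp further. The log2 width ratio was 0.46, above 80.1% of the 1-to-1 pairs. The wider knockout interval thus extended mainly into the gene at Ep400, mainly upstream at H2az1, and on both sides at H2az2.

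Inside Ep400 the knockout list had 2 narrow intervals that the control list lacked. They ran from 110717963 to 110718268, 306 bp wide, and from 110709980 to 110710233, 254 bp wide. They began 52449 and 60484 bp past the start, and each stood on 1 line. The annotation used here has no exons, so their place within the gene cannot be given further. Knockout intervals of this class, over no coding gene start and without control overlap, had a median width of 280 bp (quartiles 224 and 365). A control interval of 527 bp that stood on 2 lines, from 110780210 to 110780736, fell into the Ep400 window 9283 bp beyond the gene. It covers both listed starts of the neighbour Pus1, a pseudouridine synthase gene, neither of which lay inside a knockout interval, and it lies within the long non-coding RNA gene Gm26515. The nearest knockout interval was the one over the start of Ep400, 9022 bp away.

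Ino80 encodes the ATPase of the INO80 remodeller and differed between the lists in how its start was divided. It is 105644 bp long and lies on the minus strand of chromosome 2, from 119373042 to 119478685. The start in the promoter table lies 998 bp inside the outer end of the annotated gene, so the gene table also holds a more upstream end. The knockout list had an interval of 755 bp over this start, from 119477591 to 119478345, and another of 466 bp inside the gene, from 119476941 to 119477406, each on 2 lines. The control list had 1 interval of 1353 bp on 4 lines, from 119476947 to 119478299, wider than 97.0% of the control intervals over a coding gene start. The outer edges differed by 6 bp on the side inside the gene and by 46 bp on the upstream side, with the knockout reaching further on both. The gap between the knockout intervals was 184 bp, from 97 to 280 bp past the start, and the control interval ran across it. Of all control intervals 166 (1.08%) overlapped exactly 2 knockout intervals, and of all knockout intervals 182 (0.867%) overlapped exactly 2 control intervals. Each list holds 4 lines for this site, spread over 2 knockout intervals and 1 control interval. The 103899 bp of the gene on the inner side of the site held no interval in either list, nor did the 340 bp on its outer side.

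**Figure D2:**
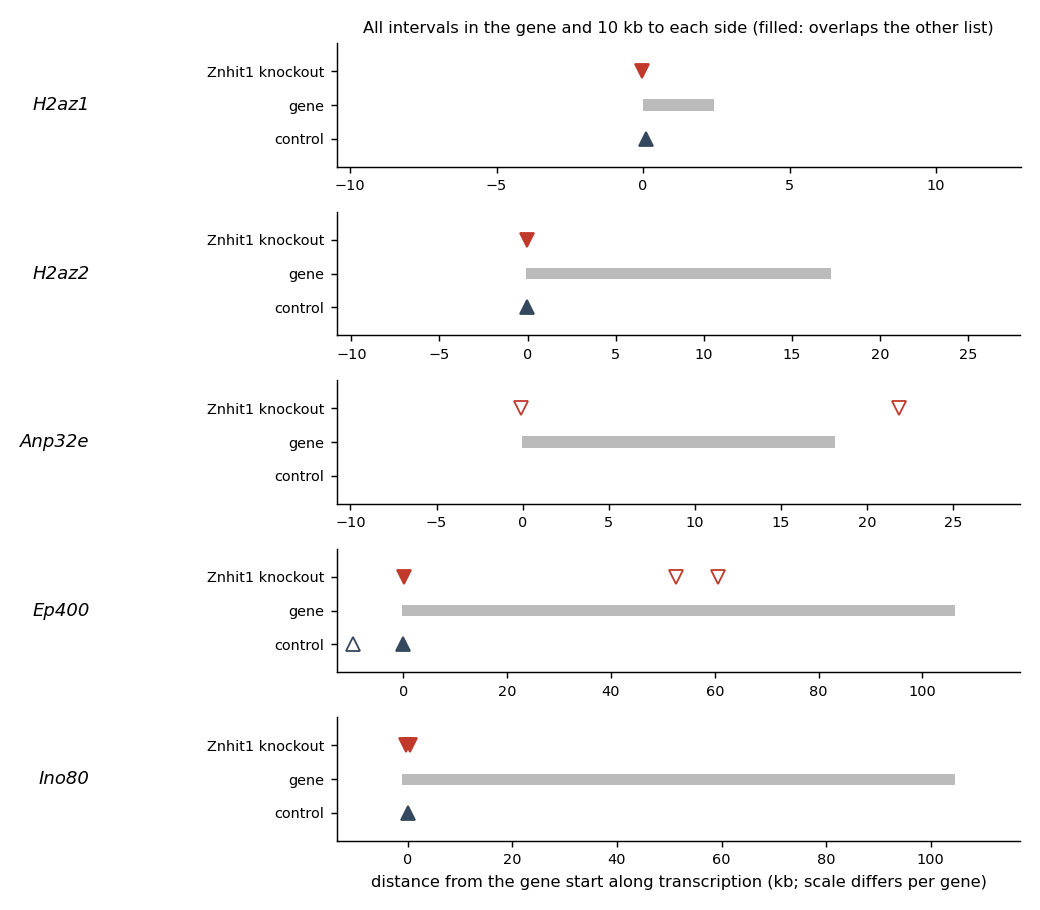
All intervals in the windows of the 5 genes, as triangles at their midpoints, with the Znhit1 knockout list above and the control list below the gene (grey bar). The x axis is the distance from the gene start in kb along transcription and has its own scale for each gene, filled triangles overlap an interval of the other list and open ones do not. Most triangles stand at the starts, and the open ones are at Anp32e and Ep400.

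The long genes Ep400 and Ino80 thus had 3 and 2 intervals in the knockout list, and 2 and 1 in the control list. For the 2429 coding genes over 100 kb, the same window held a median of 2 knockout intervals (quartiles 1 and 3) and 1 control interval (quartiles 0 and 2). In these lists, 5 of the 9 knockout intervals of the 5 genes stood on 2 or more lines, against 29.0% of the whole knockout list, and 3 of the 5 control intervals did, against 39.1% of the control list. Over coding gene starts in general, 64.0% of knockout and 70.2% of control intervals stood on 2 or more lines.

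**Figure D3:**
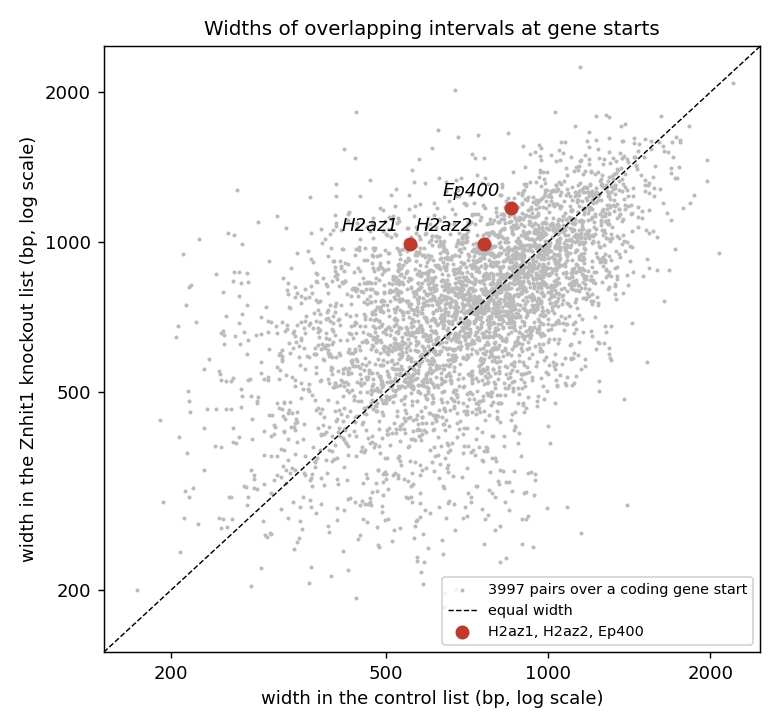
Width in the Znhit1 knockout list (y axis, bp, log scale) against width in the control list (x axis, bp, log scale) for 3997 pairs of intervals that met 1 to 1 over a coding gene start (grey). H2az1, H2az2 and Ep400 (red) lie above the line of equal width, with log2 ratios of 0.84, 0.38 and 0.46, within the cloud of other pairs, and Ino80 and Anp32e have no 1-to-1 pair.

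Starts of long non-coding RNA genes on the other strand lay close upstream of 3 of the 5 genes. The start of Gm43403 lies 161 bp upstream of that of H2az1, and it was inside the H2az1 interval in the knockout list and in the control list. The start of Gm15559 lies 232 bp upstream of that of Ep400 and was likewise inside the interval in both lists. The start of Gm46815 lies 232 bp upstream of that of Anp32e, inside the knockout interval. H2az2 and Ino80 had no such start within 1 kb. Of coding genes with a listed start, 13.1% have a start of another gene on the other strand within 1 kb upstream, and of the 6812 with a start inside an interval of either list, 25.3% do. An interval over such a pair of starts cannot be given to either gene alone.

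The partners of these proteins were looked at in the same way, as 40 genes of the SRCAP, TIP60 and INO80 complexes, the ANP32 family, the H2A.Z readers and other H2A variants. Each gene was placed in a single group, and a subunit that complexes share was not counted again in the others. Where a gene has several listed starts, as Znhit1, Kat5 and Mbtd1 do, its width is that of the widest interval over any of them. That interval was taken in each list separately, so the knockout and control intervals need not overlap. With the 10 kb rule 35 of the 40 had an interval in both lists, against 46.1% of all coding genes, and 0 in the knockout list alone, against 13.9%. Morf4l2, Ino80e and Tfpt, 3 genes, had one in the control list alone, against 5.85% of coding genes, and Pwwp2b and Macroh2a2, 2 genes, in neither. Of the 31 with a start in the promoter table, 19 had an interval over it in both lists, against 27.0% of coding genes with a listed start. Another 3 had one in the knockout list alone, against 8.56%, 3 had one in the control list alone, against 3.36%, and 6 had none. All 8 genes of the SRCAP complex with a listed start had one in both lists. At Srcap, the ATPase gene, the knockout interval was 1382 bp wide and the control interval 1239 bp, and at Znhit1 itself the knockout interval was 692 bp wide and the control interval 633 bp. A peak at the start of Znhit1 does not check the genotype, since the labels do not say which part was deleted.

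Partners of EP400 and of INO80 had start intervals in both lists at some genes and in the control list alone at others. Of the 9 TIP60 genes with a listed start, 7 had an interval in both lists, against 27.0% of coding genes with a listed start. Morf4l2 on the X chromosome had 592 bp in the control alone, against 3.36%, and Mrgbp had none. At Trrap, the large scaffold subunit, the knockout interval was 1237 bp wide and the control interval 1001 bp, and at Kat5, the acetyltransferase, the knockout interval was 967 bp wide and the control interval 779 bp. At Mbtd1 it was narrower in the knockout, with 1160 bp against 1712 bp in the control, and 5 of the 7 TIP60 genes with both intervals were narrower there. Of the 7 INO80 genes with a listed start, 3 had an interval in both lists, Nfrkb, Mcrs1 and Uchl5, against the same 27.0%. Tfpt had 854 bp in the control alone, and Ino80b, Ino80e and Yy1 had none. Mrgbp, Ino80b and Yy1 did have an interval in each list with the 10 kb rule. Over the 19 genes with both, 10 were wider in the knockout and the median log2 ratio was 0.01. For the 1-to-1 pairs over coding gene starts these values were 52.8% and 0.03.

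Of the other genes of the ANP32 family, Anp32b had a start interval of 1161 bp in the knockout alone, as 8.56% of coding genes with a listed start had, and Anp32a one of 549 bp in the control alone, as 3.36% had. Both Anp32a and Anp32b had an interval in each list with the 10 kb rule. Of the readers, Pwwp2a had a knockout interval of 500 bp and a control interval of 461 bp, and Brd2, a bromodomain protein gene, had 566 bp in the knockout alone. Of the other H2A variants with a listed start, H2aj had 531 bp in the knockout alone and the macroH2A genes Macroh2a1 and Macroh2a2 had none. Brd2, H2aj and Macroh2a1 also had an interval in each list with the 10 kb rule.

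**Figure D4:**
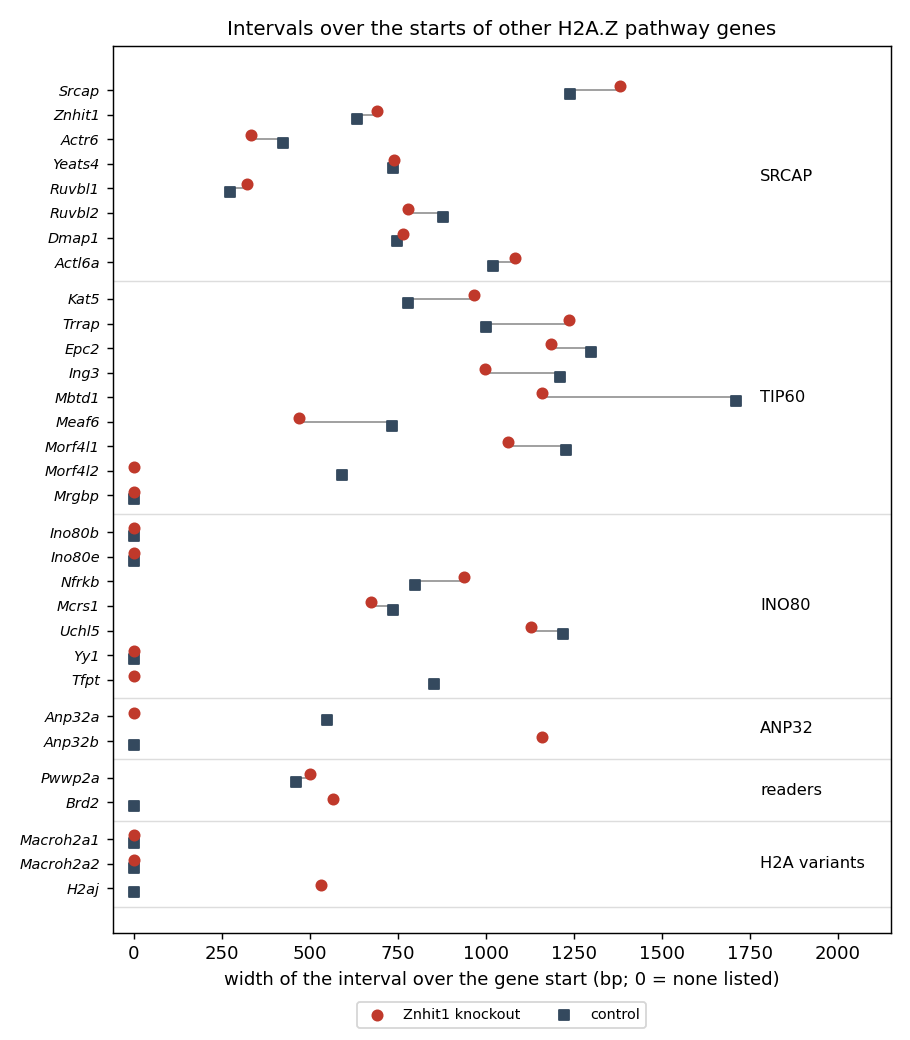
Width in bp (x axis) of the interval over the start of 31 partner genes, grouped by complex or family, in the Znhit1 knockout list (red circles) and the control list (dark squares), with 0 where none is listed and a grey line where both have one. Where a gene has several listed starts, the widest interval of each list is drawn. The SRCAP genes all have both, and Anp32a and Anp32b each have one in a single list.

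The labelled cell type was checked at marker gene starts. All 5 pachytene spermatocyte markers with a listed start (Sycp1, Sycp3, Hspa2, Piwil1 and Ddx4) had an interval over it in both lists. Of all coding genes with a listed start, 27.0% did. Of 15 markers of Sertoli, Leydig, immune, endothelial and peritubular cells, 7 have a listed start. Of these, 0 had an interval over it in the knockout list, against 35.6% of coding genes with a listed start. In the control list 0 had one, against 30.4%. With the 10 kb rule, however, 6 of the 15 had an interval in the knockout list alone, against 13.9% of coding genes. These were Sox9, Ptprc, Pecam1, Cdh5, Acta2 and Myh11. Of them, Sox9, Pecam1, Cdh5 and Myh11 have no listed start, so the check at starts could not include them. Cyp11a1 had one in the control list alone, against 5.85%, Amh in both, against 46.1%, and 7 had none. All 6 pachytene markers had one in both lists by that rule, against 46.1% of coding genes. Intervals near somatic markers thus numbered 10 in the knockout list and 2 in the control list. Those near the pachytene markers numbered 14 in the knockout list and 7 in the control list. The part of the intervals near somatic markers in the results was not tested. The knockout list was the longer, with 21004 distinct intervals against 15376 in the control list, and 29656 lines against 24167 lines. The labels give over 30000000 reads per sample, but the reads behind each list are unknown, so a missing interval does not show that the DNA was closed.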

How the data were processed

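Nuclei of pachytene spermatocytes were cut with Tn5 and sequenced, per the labels' protocols. Per the submitters' processing notes, the tools were MACS2 2.2.4, Picard 2.20.7, Bowtie2 2.3.4.3 and cutadapt 2.5, with the build mm10. Their roles, the peak threshold, a Tn5 shift, a duplicate filter and any pooling of replicates were not given in the sources used here. Each list that the authors deposited has 3 columns (chromosome, start, end) and no height, score or summit. Lines with the same interval were counted once, with the number of lines kept as times listed. Positions are 1-based.

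Python 3.11.15, numpy 2.4.6 and pandas 2.3.3 were used, and matplotlib 3.10.9 drew the figures. Overlap means at least 1 bp. Genes came from the RefSeq gene table of GRCm38.p6, and starts and strands from the RefSeq promoter table, in which every one of the 5 genes has 1 start. That table is not complete, and genes with several starts count once if any lies inside an interval. Overlap was tested on simulated data, where 1000 of 1000 intervals made to overlap and 1000 of 1000 made only to touch were recovered. On the same data bedtools 2.31.1 also counted 1000 overlapping intervals, and only that count was compared. The genes, lists and motifs were chosen with earlier results of these data known. Intervals are named for the 5 genes in full, with neighbours named where an interval lies within 1 kb of them. Plekho1, next to Anp32e, was named outside that rule. The genes next to H2az1 and H2az2 and the example partners were named after values were seen. Alternatives were windows of 2 kb and of the gene only, intervals listed at least 2 times, widths of at least 300 bp, an overlap of 50% of both intervals, neighbours up to 500 bp apart taken as shared, merging within 200 bp, and equal numbers of the widest intervals. No list recorded for the second library of either genotype was used here.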

Additional observations from a re-analysis of the deposited data

How the results depend on the processing

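With intervals listed at least 2 times, the 5 genes held 5 knockout and 3 control intervals, in place of 9 and 5. Of these, 3 knockout intervals overlapped a control interval, in place of 5, and 2 control intervals overlapped a knockout interval, in place of 4. The genes with an interval in both lists numbered 2, in place of 4, and those in the knockout list alone 2, in place of 1. These 2 were H2az1 and H2az2, whose control intervals are listed once and so were left out, as was every interval of Anp32e. The starts inside a control interval numbered 2, in place of 4. The other 7 alternatives moved none of the 9 counts by more than 1.5 times. Of 72 counts under 8 alternatives, 65 stayed within that bound and the 7 given here did not. Some of the 65 could not have moved. The alternatives on overlap and on shared neighbours act only on the counts of intervals that overlap the other list. The window alternatives do not act on the counts of starts. The 65 therefore do not measure how stable the results are. The starts were added as a count after the data were seen. No paired analysis was possible because there is 1 list per genotype. The depth behind each list is unknown, which limits every statement on a missing interval.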
